A study of Mus musculus with 8 samples.

Results

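The genes described here encode 10 muscle-type enzymes of glycolysis, glycogen use and high-energy phosphate handling, Eno3, Pgam2, Pfkm, Fbp2, Pygm, Phka1, Phkg1, Gys1, Ampd1 and Ckm. They were taken by symbol, 10 of the 26667 genes in the counts, and 9 of them were among the 14867 genes that passed a filter on low counts. The genes were selected on their measured KPH2 against KP levels in these same tumours, so the difference between the groups is described for them without a test. RNA-seq was carried out on formalin-fixed, paraffin-embedded (FFPE) sections of undifferentiated pleomorphic sarcomas (UPS), 1 library per tumour, in 2 groups of 4, KP 5 to KP 8 and KPH2 1 to KPH2 4. Mice of both groups held Trp53 fl/fl, which Cre deletes. KPH2 mice held Epas1 fl/fl in addition, so that Cre also deletes Epas1, the gene of the hypoxia-inducible factor HIF-2α. Mice of both sexes on a mixed 129/C57BL/6 background were injected at 8 weeks of age or older with adenovirus expressing Cre (Ad-Cre) in the right hind limb muscle, with tumours collected at 7 weeks or at a size limit. Ad-Cre is not limited to one cell type, no muscle without tumour was sequenced, and host muscle of the injected limb can be in the sections.

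Many steps of energy metabolism are carried out by several isozymes, and skeletal muscle uses its own form of most of them. Glycogen phosphorylase, switched on by phosphorylase kinase when calcium rises, releases glucose units from glycogen, phosphofructokinase commits them to glycolysis, and phosphoglycerate mutase and enolase act further down the pathway. Creatine kinase and AMP deaminase buffer ATP during contraction. Enolase exchanges its embryonic form for the muscle form as fibres mature, and the same holds for creatine kinase.

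The libraries held 6463221 to 13155510 counts, and levels are given as counts per 1e+06 counts of the library size after TMM scaling (CPM). Epas1 was at 59.6 to 85.5 CPM in KP and at 32.0 to 54.2 CPM in KPH2 tumours, without overlap, in the direction of the labels. Its log2 fold change was -0.81 ± 0.19, with an adjusted p of 0.0742 with edgeR and 0.00763 with DESeq2. With edgeR the adjusted p was 0.0442 without KP 5, 0.127 to 0.219 without any 1 other of the 7 tumours, and 0.117 over all 8. The study set 1 KPH2 tumour aside as a technical outlier, and KPH2 1 is absent from the deposited normalized values of 7 tumours, so the groups compared are KP 5 to KP 8 and KPH2 2 to KPH2 4, and KPH2 1 is shown apart. Skeletal muscle RNA was present in all 8 tumours: Acta1, the skeletal α-actin, was at 54.1 to 196 CPM in KP, 57.8 CPM in KPH2 1 and 168 to 946 CPM in KPH2 2 to KPH2 4. In whole tumours, fewer muscle cells and less RNA per muscle cell cannot be told apart.

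On GRCm38.p6, Eno3 spans 70653125 to 70662513 of chromosome 11, Pygm spans 6384408 to 6398464 of chromosome 19, Ckm spans 19411094 to 19421583 of chromosome 7 and Pgam2 spans 5801637 to 5803796 of chromosome 11. The 250 bases before the start site are shown for these 4 genes, because Eno3 had the largest difference between the groups and the other 3 are markers of mature muscle fibres whose promoters carry an E-box of the sequence CAGCTG, a form of the CANNTG box that MyoD family factors bind. Capitals mark CAGCTG on either strand, and each sequence runs 5′ to 3′ on the strand of the gene, from RefSeq on GRCm38.p6, at chr11:70656926-70657175 (plus strand) for Eno3, chr19:6384158-6384407 (plus strand) for Pygm, chr7:19410844-19411093 (plus strand) for Ckm and chr11:5803797-5804046 (minus strand) for Pgam2.
Eno3: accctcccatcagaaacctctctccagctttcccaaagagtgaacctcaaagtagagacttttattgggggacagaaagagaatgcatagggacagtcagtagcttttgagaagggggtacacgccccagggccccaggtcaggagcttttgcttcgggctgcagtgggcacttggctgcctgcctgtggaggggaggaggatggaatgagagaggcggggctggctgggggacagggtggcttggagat
Pygm: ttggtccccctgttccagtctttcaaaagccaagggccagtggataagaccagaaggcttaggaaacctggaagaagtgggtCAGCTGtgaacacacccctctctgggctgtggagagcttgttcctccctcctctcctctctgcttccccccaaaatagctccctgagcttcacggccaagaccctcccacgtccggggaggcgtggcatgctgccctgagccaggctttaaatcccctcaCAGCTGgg
Ckm: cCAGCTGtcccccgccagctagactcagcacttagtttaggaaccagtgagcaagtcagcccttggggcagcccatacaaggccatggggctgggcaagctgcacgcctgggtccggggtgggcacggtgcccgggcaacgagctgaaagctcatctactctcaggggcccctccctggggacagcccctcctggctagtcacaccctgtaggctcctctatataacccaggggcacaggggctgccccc
Pgam2: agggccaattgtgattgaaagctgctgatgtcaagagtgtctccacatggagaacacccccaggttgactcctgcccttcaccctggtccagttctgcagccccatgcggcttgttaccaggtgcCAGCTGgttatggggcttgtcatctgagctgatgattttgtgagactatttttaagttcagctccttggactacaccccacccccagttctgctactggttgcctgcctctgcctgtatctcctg
Pygm held CAGCTG at 2 places, 168 and 8 bases before its start, Pgam2 held it 125 bases and Ckm 249 bases before theirs, and Eno3 held none. For Eno3 this is the start RefSeq lists, which lies inside the span given above, so the window is not the one before the outermost transcript start. Among the 9 members with a promoter entry, 6 held CAGCTG in these 250 bases (Ckm, Fbp2, Gys1, Pgam2, Phka1 and Pygm), which is 6 of the 12 start sites listed for them, against 13% of 32851 promoters. The general box CANNTG, which includes CAGCTG, was found for 9 of 9 members, at 11 of the 12 start sites, and in 66.2% of all promoters. The core of the hypoxia response element, ACGTG or GCGTG, was found for 6 of 9 members, among them Eno3, at 8 of the 12 start sites, and in 38.6% of all promoters, and it can overlap CANNTG. The MEF2 motif in its strict form, CTA, 4 bases of A or T and then TAG, was found for 0 of 9 and in 0.508% of all promoters. Looser forms of the MEF2 motif were not searched, so sites of such a form can be present. Ampd1 had no entry.

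Over KP 5 to KP 8 and KPH2 2 to KPH2 4, all 9 tested members had a higher fitted level in KPH2 tumours, with log2 fold changes of 0.25 (Phka1) to 2.98 (Eno3) and a median of 0.996, beside a median of -0.02 over all tested genes. The groups did not overlap for 2 members, Eno3 and Pygm, where 9.01% of all tested genes were higher and 7.83% lower without overlap. With KPH2 1 in the KPH2 group, 0 members were free of overlap (3.75% of all genes), and the median over the members was 0.78. Since these values chose the members, nothing further is read from the counts.

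Among the glycolytic enzymes, Eno3 encodes β-enolase, the enolase of mature muscle, which converts 2-phosphoglycerate to phosphoenolpyruvate. It was at 27.5, 24.2, 12.7 and 18.3 CPM across KP 5 to KP 8, and in KPH2 1 to 4 it was at 16.4, 189.9, 197 and 108 CPM. KPH2 2, 3 and 4 all stood above every KP tumour, and KPH2 1 lay within the KP range. The KP mean was 20.6 ± 6.54 CPM (SD, n = 4) and that of KPH2 2 to KPH2 4 was 165 ± 49.5 CPM (SD, n = 3), a ratio of 7.998 and a fitted log2 fold change of 2.98 ± 0.31 (standard error). Eno3 overlaps Pfn1, the gene of profilin 1, which had a log2 fold change of 0.42 ± 0.17 (adjusted p = 0.261, edgeR), and whether the counting used the strand was not stated.

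Pfkm, the muscle subunit of phosphofructokinase, was at 54.9, 29.3, 35.1 and 40.4 CPM in the 4 KP tumours and at 34.6, 100.4, 92.7 and 48.6 CPM in KPH2 1 to 4. KPH2 2 and KPH2 3 were above all KP tumours, and KPH2 4 fell below KP 5. Its log2 fold change was 0.996 ± 0.287, and it overlaps Senp1, which had -0.03 ± 0.16.

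Pgam2, the muscle form of phosphoglycerate mutase, was at 8.67, 3.49, 4.23 and 8.10 CPM in KP and at 3.92, 14.6, 17.4 and 4.39 CPM in KPH2 1 to 4. Again only KPH2 2 and KPH2 3 lay above the KP tumours, and the log2 fold change was 0.96 ± 0.49, or 0.61 without KPH2 3. Fbp2, the muscle fructose bisphosphatase, which runs the phosphofructokinase step in reverse toward glycogen, was barely detected. It had 18 reads in all, 8, 0, 0 and 6 in KP 5 to KP 8 and 0, 2, 1 and 1 in KPH2 1 to 4. It did not pass the filter, and its 0 counts allow up to 0.419 CPM in KP 6, 0.437 CPM in KP 7 and 0.235 CPM in KPH2 1, counting error only, so a difference between the groups was not detectable at this depth.

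Among the enzymes of glycogen use, Pygm encodes muscle glycogen phosphorylase, the enzyme deficient in McArdle disease. It was at 16.2, 8.11, 5.39 and 10.5 CPM in KP and at 8.31, 67.2, 67.5 and 17.6 CPM in KPH2 1 to 4. KPH2 4 exceeded the highest KP tumour, KP 5, only narrowly, whereas KPH2 2 and KPH2 3 stood well above both. The KP mean was 10.1 ± 4.61 CPM (SD, n = 4) and that of KPH2 2 to KPH2 4 was 50.7 ± 28.7 CPM (SD, n = 3), a ratio of 5.04, with a log2 fold change of 2.30 ± 0.51.

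Phosphorylase kinase, which activates Pygm, has a regulatory alpha and a catalytic gamma subunit with muscle forms. Phka1, the muscle alpha subunit, was at 42.3, 39.4, 31.8 and 33.9 CPM in KP and at 29.1, 44.5, 51.1 and 36.9 CPM in KPH2 1 to 4. It was the most even member, with 1.76-fold between the highest and the lowest tumour and a log2 fold change of 0.25 ± 0.17, and the only tested one for which KPH2 1 lay below all KP tumours. Phkg1, the muscle gamma subunit, was low, at 1.79, 1.40, 1.17 and 0.917 CPM in KP and at 0.940, 2.10, 3.51 and 1.12 CPM in KPH2 1 to 4, from 134 reads in all. The groups overlapped for both subunits, and the log2 fold change of Phkg1 was 0.75 ± 0.46. Without KPH2 3 it was 0.28 for Phkg1 and 0.13 for Phka1. The Phkg1 gene overlaps Sumf2, and 25% of the 50-base stretches of the Phkg1 transcript also occur in transcripts of other genes, so its unique counts are uncertain.

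Gys1, glycogen synthase of muscle and most other tissues, builds glycogen rather than breaking it down. It was at 46.2, 56.0, 80.8 and 42.9 CPM in KP and at 65.7, 109.6, 66.3 and 67.0 CPM in KPH2 1 to 4. KPH2 2 was highest and KP 7 second, and KPH2 1, 3 and 4 were alike within 1 CPM above or below 66.3, an order found for no other member. The log2 fold change was 0.50 ± 0.27, or 0.23 without KPH2 2, and 6.64% of its 50-base stretches lie in the overlapping Ruvbl2.

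Both enzymes of high-energy phosphates were higher in KPH2 2 and KPH2 3. Ckm, the muscle creatine kinase, which regenerates ATP from phosphocreatine at the myofibril, was at 31.2, 2.79, 11.8 and 19.5 CPM in KP and at 8.07, 58.4, 109 and 17.3 CPM in KPH2 1 to 4. It was the most uneven of the tested members, with 11.2-fold between the KP tumours and 38.9-fold over all 8. Its mean was 16.3 ± 12.1 CPM in KP (SD, n = 4) and 61.5 ± 45.8 CPM in KPH2 2 to KPH2 4 (SD, n = 3), and the groups overlapped through KPH2 4. Of its 50-base stretches, 11.7% lie in the overlapping A930016O22Rik. Ampd1, the muscle AMP deaminase, which turns AMP into IMP in working muscle, was at 5.45, 2.24, 5.39 and 2.37 CPM in KP and at 2.27, 9.78, 21.6 and 5.17 CPM in KPH2 1 to 4. KPH2 4 was again within the KP range, and the log2 fold changes were 1.89 ± 0.76 for Ckm and 1.64 ± 0.53 for Ampd1. Without KPH2 3 they were 1.19 and 0.94.

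**Figure D1:**
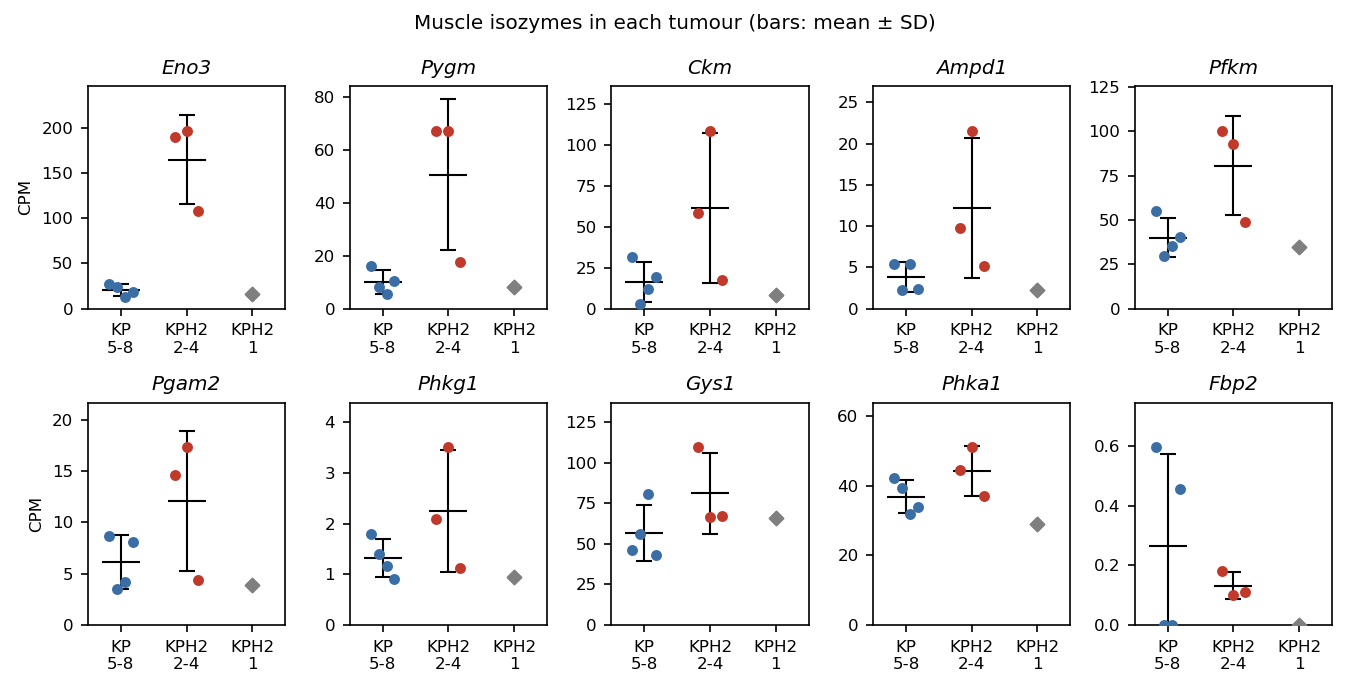
Level of each muscle isozyme in CPM (vertical axis, from 0, scaled per gene) in the 4 KP tumours (blue), KPH2 2 to KPH2 4 (red) and KPH2 1 (grey diamond), with bars for the mean and SD of the first 2 sets. KPH2 2 and KPH2 3 are highest for 8 of the 10 genes, KPH2 4 stands clear of the KP tumours for Eno3, at 108 CPM, and KPH2 1 stays near them.

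Per kilobase of exon, the scale on which genes can be compared, Gys1 (15.4 ± 4.66 CPM per kb), Pfkm (13.3 ± 3.65) and Eno3 (13.2 ± 4.18) led in KP tumours (SD, n = 4) and overlapped one another. They were followed by Pgam2 at 7.29, Phka1 at 6.03, Ckm at 5.96, Pygm at 3.50 and Ampd1 at 1.65 CPM per kb on average, each overlapping the next, and then by Phkg1 at 0.555 and Fbp2 at 0.195, of which Phkg1 did not overlap Ampd1. In KPH2 2 to KPH2 4 the order was headed by Eno3 at 106 ± 31.6 CPM per kb (SD, n = 3), without overlap with the next gene, Pfkm, at 26.9 ± 9.33. Ckm (22.4), Gys1 (22.02), Pygm (17.6), Pgam2 (14.4), Phka1 (7.22) and Ampd1 (5.2) followed with overlapping neighbours, and Phkg1 (0.946) and Fbp2 (0.0974) stood below without overlap. Eno3 thus ranked 3 in KP and 1 in KPH2 2 to KPH2 4, while Phkg1 and Fbp2 were last in both.

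KPH2 3 was highest for 7 of the 9 tested members and KPH2 2 for Pfkm and Gys1. These tumours held the top 2 places for 8 of the 9, Gys1 excepted, and the order of the other tumours varied from gene to gene. Over the 8 tumours, the log2 level of Pfkm had a Pearson correlation of 0.983 with the mean of the other tested members, Pygm of 0.961, Ampd1 of 0.900, and Gys1 of 0.390, the lowest. These values are descriptive, and all points share their libraries. In KPH2 4, Eno3 was high beside some members and not others. The ratio of Eno3 to Pygm in CPM was 6.17 there and 1.70 to 2.98 in the other 7 tumours, and the ratio of Eno3 to Pgam2 was 24.7 there, 11.4 and 13.0 in KPH2 3 and 2, and 2.25 to 6.92 in KP tumours and KPH2 1. The ratio of Eno3 to Pfkm, in contrast, was 1.89 to 2.23 in KPH2 2 to KPH2 4 alike and 0.361 to 0.824 elsewhere, and the ratio of Eno3 to Ckm, at 6.25 in KPH2 4, was higher in KP 6, at 8.65.

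The other forms of the same enzymes were listed by enzyme family and not by their levels, though with earlier results of these data known. Since the muscle forms were chosen on their levels, the 2 lists are given side by side without a comparison. The 15 counterparts are expressed in many tissues, brain or liver, and 12 passed the filter (Eno1b, Fbp1 and Gys2 did not, at means under 1 CPM). Of these 6 were higher and 6 lower in KPH2 2 to KPH2 4, with a median log2 fold change of 0.05, and 0 were past an adjusted p of 0.05 with edgeR or DESeq2, while 1 was under an unadjusted p of 0.05 with edgeR. Of all tested genes, edgeR called 1.96% (1.24% higher and 0.72% lower in KPH2), DESeq2 called 7.93%, and 17.8% had an unadjusted p under 0.05 in edgeR. With KPH2 1 in the KPH2 group edgeR called 1 gene of all tested (0.00675%). Eno1, the ubiquitous enolase, was at 329 ± 96.2 CPM in KP and 425 ± 79.0 CPM in KPH2 tumours (log2 fold change 0.35 ± 0.24, adjusted p = 0.50, edgeR). Eno2, the neuronal enolase, was the counterpart under the unadjusted threshold and went the other way, at 18.2 ± 11.99 and 7.15 ± 0.547 CPM (-1.36 ± 0.53, adjusted p = 0.229), with KP 5 and KP 7 at 31.9 and 24.5 CPM and every other tumour at 12.5 CPM or less. The 3 enolases therefore had values in both directions.

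Glycogen phosphorylase of liver, Pygl, had a log2 fold change of -0.47 ± 0.46 and that of brain, Pygb, of 0.25 ± 0.26. Pfkl and Pfkp, the liver and platelet phosphofructokinases, had values of 0.45 ± 0.36 and 0.10 ± 0.33, and Pgam1, the widespread mutase, had 0.25 ± 0.19. The remaining counterparts lay between -0.27 ± 0.21 (Ampd2) and 0.65 ± 0.44 (Ckb, the brain creatine kinase), with Phkg2 at -0.16 ± 0.27, Ampd3 at -0.07 ± 0.21 and Phka2 at -0.01 ± 0.18. Single tumours moved these values and those of Eno1. Without KPH2 2, Pfkl was 0.02, Pgam1 0.05, Pygl -1.10 and Eno1 0.21, and without KPH2 3, Ckb was 0.04, Pgam1 0.40 and Pygl -0.20. Without KP 5, Pygb was 0.55, without KP 8 it was 0.13, and without KP 7, Ampd2 was -0.08, Eno1 0.58 and Pfkl 0.72. The median over the 12 counterparts ranged from -0.0647 (without KPH2 2) to 0.105 (without KP 7) and was also below 0 without KP 8, at -0.0538. Adjusted p-values of these 10 genes ran from 0.50 to 0.981 (edgeR), and their groups overlapped for each, which at this number of tumours does not show that they were equal.

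**Figure D2:**
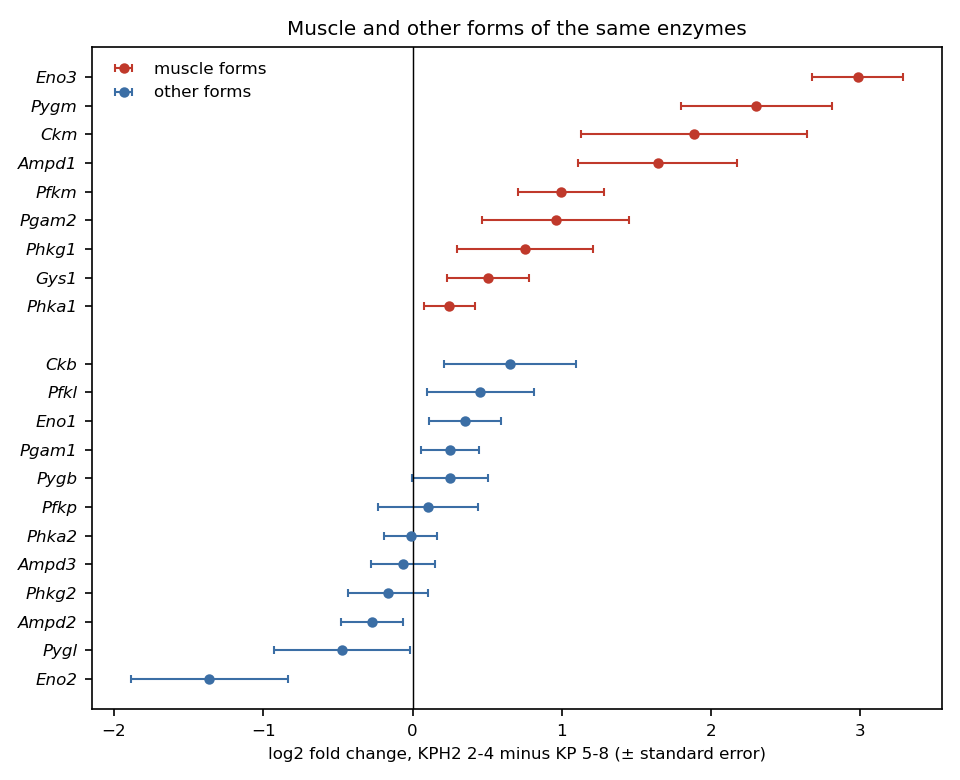
Fitted log2 fold change (horizontal axis, KPH2 2 to KPH2 4 minus the 4 KP tumours) with its standard error for the 9 tested muscle forms (red) and the 12 tested other forms (blue). All red points lie at or above 0.25, and the blue points spread from -1.36 (Eno2) to 0.65 (Ckb).

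As a measure within each tumour, the muscle form was expressed as a percent of its family, per kilobase of exon. For enolase it was 9.99%, 10.97%, 3.27% and 7.11% in KP 5 to KP 8 and 5.96%, 32.4%, 41.9% and 24.9% in KPH2 1 to 4. The family total also differed, at 182 ± 46.2 CPM per kb in KP and 318 ± 50.3 in KPH2 2 to KPH2 4. Of the 50-base stretches of Eno1, 72.2% occur in other transcripts, such as its processed copies, and reads that map equally to both are not counted as unique. When only unique stretches were taken as length, the Eno3 share was 0.935% to 3.31% in KP and 8.34% to 16.5% in KPH2 2 to KPH2 4, so the size of the share depends on this choice while the groups stayed apart.

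For glycogen phosphorylase the share of Pygm was 13.6%, 10.9%, 7.09% and 16.8% in KP 5 to KP 8 and 10.3%, 44.4%, 44.8% and 19.6% in KPH2 1 to 4, without overlap between KP and KPH2 2 to KPH2 4. For phosphorylase kinase gamma the share of Phkg1 was 7.22% to 9.64% in KP and 10.6% to 17.4% in KPH2 2 to KPH2 4, also without overlap. That gap rests on few reads, with 10 Phkg1 reads of 66 for the family in KPH2 4 and 10 of 72 in KP 6. Of the 50-base stretches of Phkg2, 40.8% also occur in Ccdc189. Groups overlapped for the other families. Ckm made up 36.4 ± 12.8% of cytosolic creatine kinase in KP and 58.4 ± 16.5% in KPH2 2 to KPH2 4, Ampd1 7.12 ± 3.36% and 21.1 ± 13.0% of AMP deaminase, Pfkm 33.7 ± 11.5% and 44.4 ± 13.0% of phosphofructokinase, and Pgam2 18.6 ± 8.14% and 26.5 ± 14.1% of phosphoglycerate mutase (SD, n = 4 and 3). Without KPH2 3 the difference fell to 6.75 points from 13.9 for Ampd1, to 3.32 from 10.7 for Pfkm and to 0.798 from 7.90 for Pgam2, for which it was 14.8 without KPH2 4.

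Phka1 made up 39.5 ± 3.24% and 43.6 ± 1.97% of the alpha subunits, and Gys1 was 98.1% or more of glycogen synthase in every tumour, since its liver form Gys2 was near 0. The median difference over the 9 families was 10.7 percentage points, and without KPH2 3 it was 4.14. The share in KPH2 1 was within the KP range for 8 of 9 families and below it for Pgam2, at 10.1% against 11.2% in KP 6.

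**Figure D3:**
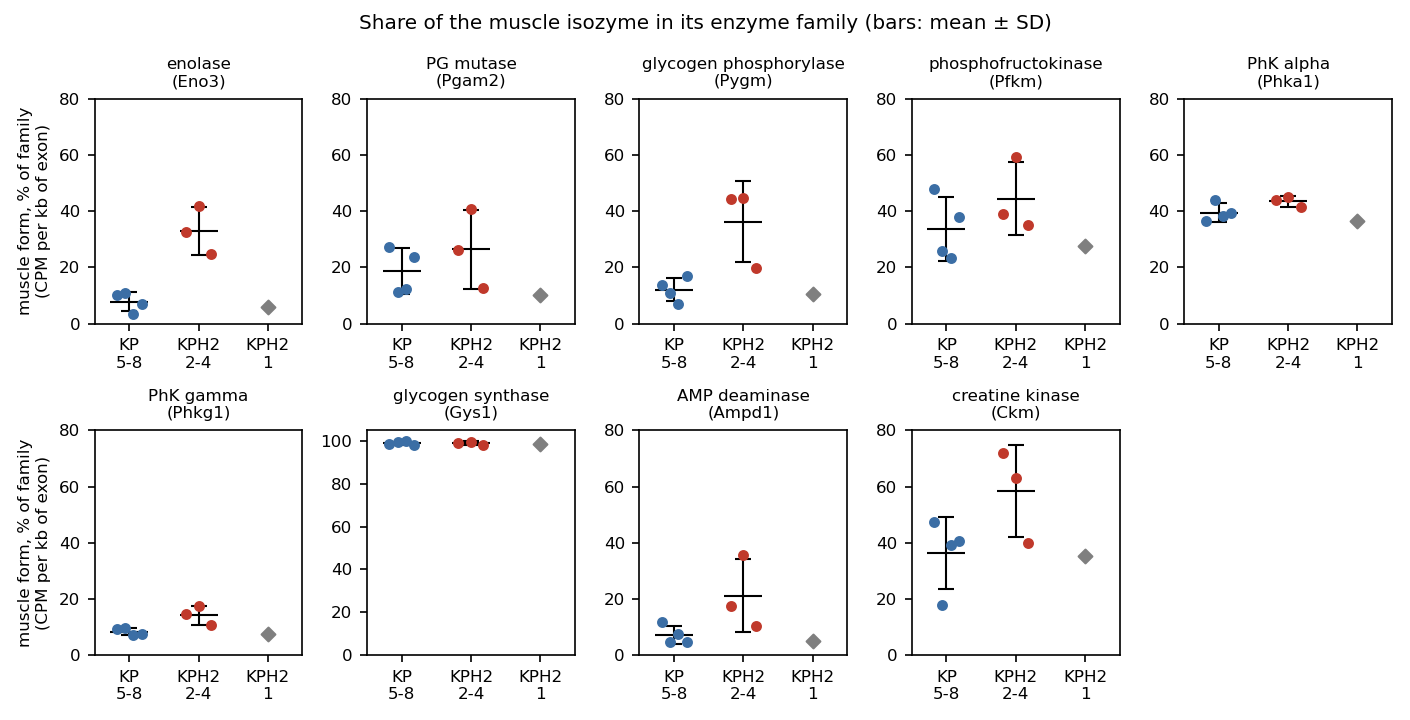
Share of the muscle form in its enzyme family, in percent of CPM per kilobase of exon (vertical axes from 0, glycogen synthase on its own scale), for the KP tumours (blue), KPH2 2 to KPH2 4 (red) and KPH2 1 (grey), with mean and SD. The sets are apart for enolase, glycogen phosphorylase and, from few reads, phosphorylase kinase gamma, and glycogen synthase stays at 98.1% or more throughout.

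Genes of the contractile apparatus were high in the same tumours. Of a list of 30 skeletal muscle structural genes, 30 of 30 were higher in KPH2 2 to KPH2 4, 1 passed the adjusted threshold (edgeR, Neb), and the median log2 fold change was 2.10, where 7143 of all 14867 tested genes were higher and 1.24% were called as higher. Their summed level was 2152 to 3845 CPM in KP, 1642 CPM in KPH2 1 and 4499 to 20680 CPM in KPH2 2 to KPH2 4, and none of Acta1, Myh4 and Ttn was at 0 in any tumour. The mean log2 CPM of the list ranked KPH2 3 and KPH2 2 first, as did the members. Fast fibre genes, all of which are also in the list of 30, were higher for 8 of 8 (median 2.03). Slow fibre genes were higher for 6 of 7 (median 3.32, 1 called, Myoz2). Lists for other cells went the other way or showed no common direction, with macrophage markers lower for 11 of 11 (median -0.52, 0 called), endothelial markers for 7 of 8 (-0.58, 0 called) and mesenchymal markers for 10 of 12 (-0.33, Pdgfra called lower).

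Relative to the mean of the structural list in the same tumour, on the log2 scale, the members split. Eno3 was -0.10 ± 0.63 in KP and 0.97 ± 0.74 in KPH2 2 to KPH2 4, a difference of 1.07, and KPH2 3 (0.28) lay below KP 6 (0.78). Pygm, at -1.17 ± 0.36 and -0.91 ± 0.32, and Ckm, at -0.81 ± 0.99 and -0.76 ± 0.16, differed by 0.26 and 0.05. Pygm followed the structural genes closely, within a range of 0.88 over all 8 tumours against 3.60 in log2 CPM. Ckm was alike only in the means, since its KP tumours ran from -2.25 (KP 6) to -0.02 (KP 5) around the -0.88 to -0.58 of KPH2 2 to KPH2 4.

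The other 6 members had lower group means on this scale in KPH2 2 to KPH2 4, and the groups overlapped for each of them except Pgam2. Pgam2 was nearly constant among KP tumours, at -1.94 to -1.79, and lower in KPH2 2 to KPH2 4, at -3.21 to -2.81, with KPH2 1 at -1.83 beside the KP tumours. The differences were -1.08 for Pgam2, -0.44 for Ampd1, -0.95 for Pfkm, -1.33 for Phkg1, -1.41 for Gys1 and -1.67 for Phka1. That of Ampd1 was within its spread, at -2.52 ± 0.87 in KP and -2.95 ± 0.40 in KPH2 2 to KPH2 4, and the mean over the 9 members differed by -0.61. Gys1 and Phka1 had the widest ranges of the 9 members on this scale, 3.69 and 3.15 over the tumours, against 1.35 and 0.81 in log2 CPM. The Pearson correlation with the structural mean over the 8 tumours was 0.326 for Gys1, the lowest of the members, and 0.827 for Phka1, whose level changed little between tumours.

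With the structural mean as a covariate in the fit, the log2 fold change of Eno3 was 2.28, that of Gys1 0.75, Pygm 0.47, Ampd1 0.21, Pfkm 0.07, Phka1 -0.05, Phkg1 -0.32, Ckm -0.66 and Pgam2 -0.92, and the median was 0.07. That covariate and the group are themselves related in these 7 tumours. The part that the amount of muscle in the sections had in the members' values was not tested.

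**Figure D4:**
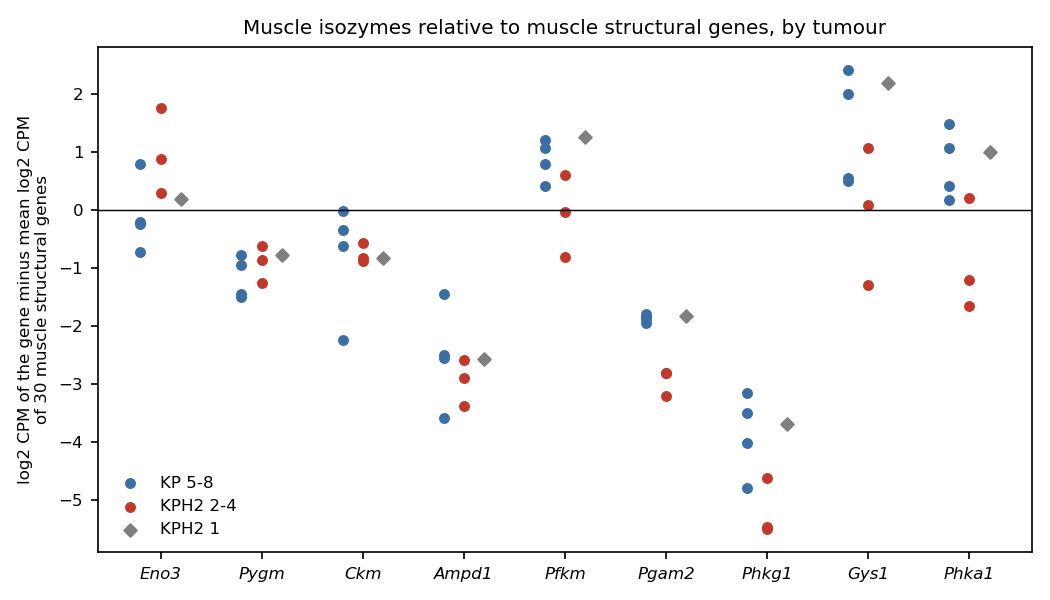
Log2 CPM of each tested muscle isozyme minus the mean log2 CPM of 30 muscle structural genes in the same tumour (vertical axis) for KP tumours (blue), KPH2 2 to KPH2 4 (red) and KPH2 1 (grey). Eno3 is higher on average in KPH2 2 to KPH2 4 by 1.07, Pygm overlaps between the sets, Ckm is spread from -2.25 to -0.02 in KP, and Pgam2 lies between -1.94 and -1.79 in KP and at or below -2.81 in KPH2 2 to KPH2 4.

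The rest of the pathways was examined through 45 further genes of glycolysis, glycogen handling and adenylate or phosphocreatine metabolism, of which 44 were tested. Of these 32 were higher and 12 lower, with a median log2 fold change of 0.28, where 7143 of all 14867 tested genes were higher. With edgeR 0 passed the adjusted threshold (1.96% of all genes did), while 10 were under an unadjusted p of 0.05 (17.8% of all genes), 8 of them higher. DESeq2 called 4 (7.93% of all genes), Ppp1r3a, Ppp1r3d, Adssl1 and Prkag3, which are also 4 of the 5 with the largest differences. Within the list, glycolytic genes were higher for 15 of 19 (median 0.38), glycogen genes for 11 of 18 (0.12) and the adenylate and phosphocreatine genes for 6 of 7 (0.48).

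Among the 5 genes with the largest differences, 3 are muscle-enriched. Prkag3, the muscle gamma subunit of the energy sensor AMPK, was at 0.954 ± 0.955 CPM in KP and 6.89 ± 4.33 CPM in KPH2 2 to KPH2 4 (log2 fold change 2.85 ± 0.86, adjusted p = 0.14, edgeR). Ppp1r3a, which ties protein phosphatase 1 to muscle glycogen, was at 2.29 ± 1.36 and 10.3 ± 6.15 CPM (2.12 ± 0.59, adjusted p = 0.115), and Adssl1, the muscle adenylosuccinate synthase of the purine nucleotide cycle to which Ampd1 belongs, was at 9.93 ± 1.17 and 22.9 ± 9.02 CPM (1.19 ± 0.29, adjusted p = 0.0787). For these 3, KPH2 2 and KPH2 3 were again the highest tumours.

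Gpd1, the cytosolic glycerol-3-phosphate dehydrogenase, was at 1.64 ± 0.372 and 4.30 ± 2.38 CPM (1.36 ± 0.44, adjusted p = 0.156). Ppp1r3d, another glycogen-targeting subunit of the phosphatase, was lower, at 5.56 ± 0.767 CPM in KP and 2.44 ± 0.453 CPM in KPH2 2 to KPH2 4, without overlap (-1.20 ± 0.28, adjusted p = 0.0715), and KPH2 1 was at 3.92 CPM, also below all KP tumours. The list holds 4 glycogen-targeting subunits, and the log2 fold changes of the others were -0.84 for Ppp1r3c and 0.23 for Ppp1r3f, neither called by edgeR or DESeq2. With the structural mean as a covariate, the log2 fold change was 1.58 for Prkag3, 0.004 for Ppp1r3a and 0.49 for Adssl1. In that fit it was 0.20 for Gpd1 and -1.18 for Ppp1r3d.

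The genes whose log2 levels over the 8 tumours were most like the mean of the tested members, among 14726 genes, were Casq1 (Pearson's r of 0.988), Myoz1 (0.984), Tnnt3 (0.981), Art1, Ppp1r3a and Tnni2 (each 0.980), Actn3 (0.979), Mylpf (0.977), Tnnc2 (0.976) and Scn4a (0.973). Casq1 is the calcium store protein of the fast fibre reticulum, Tnnt3, Tnni2 and Tnnc2 are the 3 fast troponins, and Scn4a is the muscle sodium channel. All 8 points share their libraries, and without KPH2 2 and KPH2 3 these correlations were 0.845 to 0.931.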

How the data were processed

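Stranded libraries of FFPE tumour RNA, with ribosomal RNA removed, were sequenced as single reads of 100 bases. The authors used STAR 2.4 for alignment to GRCm38 and HTSeq 0.6.1 to count uniquely aligned reads for each RefSeq gene. The strand setting is not given in the sources used here. The authors deposited these raw counts for 8 tumours, and log2 values from the regularized log transformation of DESeq2 1.6, used here only as an alternative. The counts were compared by edgeR 4.0.16 in R 4.3.3 (TMM, filter with a minimum count of 10 and a minimum total of 15, robust quasi-likelihood test, Benjamini-Hochberg adjustment over all 14867 tested genes, threshold 0.05, no covariates) and, as an alternative, DESeq2 1.42.0. Log2 CPM used a prior count of 2. Exon lengths, positions and shared 50-base stretches came from transcripts on GRCm38.p6. In simulated counts with 200 of 14867 genes changed in the 7-tumour comparison, edgeR recovered 191 with 15 false calls and DESeq2 189 with 26. Every changed gene was given a log2 change of 2 in either direction, and all genes were drawn independently with 1 common dispersion. The simulation checks the code and does not give the power in these tumours, where the spread differs between genes.

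The members and gene lists were chosen with earlier results of these data known. Named genes are all members, the tested counterparts, pathway genes past the threshold or among the 5 largest changes, the 10 genes most like the members' mean among those of at least 1 CPM on average, and defining markers, and a few others are named where a list held a single called gene or a gene overlapped a member. No label says that each tumour came from its own mouse, so p-values measure the spread between these tumours. Alternatives were all 8 tumours, other scalings and filters, no robust estimates, DESeq2, leaving out each tumour, the structural muscle score as a covariate, and shares without length. Shares over unique stretches were added after seeing the data. A further allele that both groups share is not reported here.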

Additional observations from a re-analysis of the deposited data

Results flagged for a closer look

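Among 38 groups of 4 tumours examined, 1 held a tumour far from the others, and chance alone flags about 1 in 20. It was Gys1 in the KPH2 tumours, where KPH2 2 was at 109.6 CPM and the next tumour, KPH2 4, at 67.0 CPM, a gap of 0.97 of the group's whole range, above Dixon's critical value for groups of this size.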

How the results depend on the processing

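No paired analysis was possible because KP and KPH2 tumours share no replicate number. Genes called by edgeR numbered 292, against 1 over all 8 tumours, 4 with the structural score as a covariate, 1179 with DESeq2, and 55 to 349 when 1 tumour was left out (130 without KP 6 or KP 8, 73 without KP 7, 55 without KPH2 2, 159 without KPH2 3, 153 without KPH2 4). The median over the members was 0.0721 with the covariate and 0.82 to 1.36 when 1 tumour was left out, and 0.626 on the deposited regularized log values, beside 0.996. Pathway genes called were 4 with DESeq2 and 0 to 1 when 1 tumour was left out, the 1 being Adssl1 without KPH2 4. Counterparts called stayed at 0 in each alternative. Directions turned with the covariate for the members Pgam2 (-0.92), Ckm (-0.66), Phkg1 (-0.32) and Phka1 (-0.05) and the counterparts Pygb (-0.0754), Ampd2 (0.0237), Ampd3 (0.25) and Ckb (-0.45), and on leaving out 1 tumour for Phka2 (0.15 without KP 5, 0.0016 without KPH2 2, 0.04 without KPH2 4; range -0.0779 to 0.15), Ampd3 (0.05 without KP 7, 0.0934 without KPH2 3; -0.16 to 0.0934), Pfkp (-0.05 without KP 8, -0.28 without KPH2 2; -0.28 to 0.36) and Phkg2 (0.0087 without KPH2 4; -0.40 to 0.0087). The cause was not tested. With 1 tumour left out the median share difference was 4.14 to 15.5 points, and members minus structural genes -0.87 to -0.38. Over all 8 tumours these were 6.46 points and -0.40, with 6.46 points for Pfkm, 3.81 for Pgam2 and 2.29 for Phka1. Depth limits Fbp2, with 18 reads, and Phkg1, with 134.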
